A study of Homo sapiens with 6 samples.

Results

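CSF1, CSF2 and CSF3 encode the colony-stimulating factors M-CSF, GM-CSF and G-CSF, secreted proteins that drive the growth and maturation of macrophages, granulocytes and their precursors. The 3 genes were taken by symbol from the 50867 genes with values and a position. The libraries came from UM-UC-3 and 5637, established human bladder cancer cell lines that had been infected with lentivirus to express stably either a control construct, sh-NC, or a hairpin that targets the long noncoding RNA LNMAT1. The first of these hairpins is named sh-LNMAT1#1 and the second sh-LNMAT1#2. All infected cells were selected with puromycin, UM-UC-3 was grown in DMEM and 5637 in RPMI 1640, so that cell line and medium cannot be told apart. Each construct was sequenced in 1 library per line, and a difference between 2 libraries therefore has no replicate check. The comparison of sh-NC with both hairpins addressed which genes depend on LNMAT1.

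The factors act through 2 kinds of receptor. M-CSF binds the tyrosine kinase CSF1R, which also binds IL-34. GM-CSF binds CSF2RA paired with CSF2RB, the chain that it shares with the IL-3 and IL-5 receptors, and G-CSF binds CSF3R, and both cytokine receptors signal through JAK kinases and STAT proteins. CSF1 is made by many cell types, whereas CSF2 and CSF3 are mostly silent until inflammatory signals induce them, and their messengers carry AU-rich elements that speed decay. In tumours these cytokines are studied because they recruit and sustain myeloid cells. Medium conditioned by 5637 cells has long served as a laboratory source of G-CSF and GM-CSF.

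The AU-rich stretches and the CSF2 promoter are shown because they are the regulatory sequences known best for these genes. For each gene the 30 bases of the 3′ untranslated region with most copies of the pentamer ATTTA are given 5′ to 3′ from the transcript with the longest such region in GENCODE release 29, with the pentamers in capitals.
CSF1: ATTTAaatatctATTTAaaagataggaagc
CSF2: ATTTATTTATTTATTTATTTAagttcatat
CSF3: ATTTAtctctATTTAatATTTAtgtctatt
The CSF2 stretch begins at base 229 of a region of 318 bases, that of CSF3 at base 24 of 854, and that of CSF1 at base 2086 of 2154. CSF2 held 8 copies of ATTTA, or 25.2 per kilobase, and 0.115% of 19145 genes were as dense. CSF3 held 7 copies, or 8.20 per kilobase, a density reached by 2.13% of genes. CSF1 held 4 copies, or 1.86 per kilobase, which 43.4% of genes reached. The longer element TTATTTATT occurred 3 times in CSF2, as often as in 0.695% of genes, and 0 times in the regions of CSF1 and CSF3. Copies were counted with overlaps, and ATTTA lies inside TTATTTATT.

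The 250 bases before the start of CSF2 in RefSeq (GRCh38.p14, chr5:132073539-132073788, + strand) follow, with matches to 3 of 5 searched motifs in capitals.
CSF2 promoter: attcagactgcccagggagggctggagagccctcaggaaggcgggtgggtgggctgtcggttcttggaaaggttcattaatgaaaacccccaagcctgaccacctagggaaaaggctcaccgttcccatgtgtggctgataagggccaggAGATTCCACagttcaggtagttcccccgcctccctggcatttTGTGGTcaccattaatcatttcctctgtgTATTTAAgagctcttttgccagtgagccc
The cytokine element core AGATTCCAC began 100 bases upstream of the start, the RUNX core TGTGGT 58 bases upstream and the TATA-like TATTTAA 29 bases upstream. Searched on both strands in windows of 300 bases, from 250 before to 50 after the start, these letters occurred in 0.205%, 13.1% and 4.52% of 35116 promoters. TGANTCA, bound by AP-1, and GGGANTTCC, bound by NF-kB, had 0 matches in the CSF2 window and occurred in 7.71% and 1.85% of promoters. Only these exact letters were searched, with N as any base, so sites with other letters were not counted. The motifs did not overlap each other in this window. The promoter table matched 1 of the 3 genes, and CSF1 and CSF3 had no entry.

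CSF1 (ENSG00000184371) lies on chromosome 1 from 109910242 to 109930992, CSF2 (ENSG00000164400) on chromosome 5 from 132073790 to 132076170, and CSF3 (ENSG00000108342) on chromosome 17 from 40015361 to 40017813, all on the + strand of GRCh38. CSF2 has 1 annotated transcript of 4 exons, whereas CSF1 and CSF3 have 9 transcripts each.

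The deposited values were FPKM, fragments scaled to gene length and to the library's depth. The depth was fitted here from the values of single-exon genes and lay between 19374800 and 24706800 fragments. Fragment counts given below were worked out from FPKM, exon length and this depth. Across the 12716 genes whose mean over the 6 libraries was 1 FPKM or more, log2(FPKM + 0.5) values of the library labelled 5637 sh-NC correlated with UM-UC-3 sh-LNMAT1#1 at r = 0.985 and with the other UM-UC-3 libraries at 0.923 and 0.934. Its r with the 5637 sh-LNMAT1 libraries was 0.617 and 0.622. The epithelial genes EPCAM, CDH1 and KRT5 were at most 0.0549 FPKM in the 3 UM-UC-3 libraries and in the library labelled 5637 sh-NC, and between 14.1 and 155 FPKM in the 5637 sh-LNMAT1 libraries. The mesenchymal factor ZEB1 was between 8.67 and 12.7 FPKM in the first 4 libraries and at most 0.0264 FPKM in the other two. The library labelled 5637 sh-NC thus carried the marker levels of UM-UC-3, and every knockdown difference in 5637 that rests on it is given as a difference from the library with that label. LNMAT1, listed as LINC01296, stood in UM-UC-3 at 14.2 FPKM in the control and 6.20 and 6.70 FPKM with the first and second hairpin, and at 11.7, 4.70 and 2.14 FPKM in the libraries with those labels in 5637. Near-identical gene copies make its level uncertain. Of the leukocyte and macrophage markers, 9 of 9 were under 1 FPKM in every library, with LYZ and CD3E at 0, and their summed level was 0.362 to 0.856 FPKM in UM-UC-3 and the labelled 5637 sh-NC and 0.623 to 0.920 FPKM in the 5637 sh-LNMAT1 libraries. Of 5 fibroblast markers 4 were under 1 FPKM throughout, and COL1A1 reached 7.92 FPKM in 5637. The 3 endothelial markers were under 1 FPKM in every library. Among urothelial markers UPK1B was at 0 throughout, and UPK2 and UPK3A stayed under 1 FPKM.

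CSF1 was expressed in all 6 libraries over a narrow range. In UM-UC-3 its FPKM was 11.8 under sh-NC, 8.90 under sh-LNMAT1#1 and 7.51 under sh-LNMAT1#2. In the libraries labelled 5637 its FPKM was 5.47 under sh-NC, 3.69 under sh-LNMAT1#1 and 2.99 under sh-LNMAT1#2. These levels came from 458 to 2308 fragments. The highest library was UM-UC-3 sh-NC, where 77.6% of the 12716 genes were lower in FPKM as deposited, and the lowest was 5637 sh-LNMAT1#2, where 34.4% were lower. The 3 libraries labelled 5637 lay below the 3 of UM-UC-3 without overlap, as did those of 8.18% of the 12716 genes.

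CSF2 varied more, and its low and high libraries crossed the lines. In UM-UC-3 its FPKM was 9.72 under sh-NC, from 189 fragments, 0.399 under sh-LNMAT1#1, from 7, and 3.60 under sh-LNMAT1#2, from 65. In the libraries labelled 5637, CSF2 had an FPKM of 0.510 under sh-NC, from 9 fragments, 6.35 under sh-LNMAT1#1, from 104, and 23.3 under sh-LNMAT1#2, from 355. The 95% counting interval ran from 0.161 to 0.823 FPKM for UM-UC-3 sh-LNMAT1#1 and from 0.233 to 0.967 FPKM for the library labelled 5637 sh-NC, so that these 2 lowest levels were not told apart. Such exact Poisson intervals cover counting error only. CSF2 stood above 89.9% of the 12716 genes in 5637 sh-LNMAT1#2 and above 4.46% in UM-UC-3 sh-LNMAT1#1.

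CSF3 was near absent from 4 libraries and high in 2. It had 1 fragment in UM-UC-3 sh-NC, 2 with sh-LNMAT1#1, 4 with sh-LNMAT1#2 and 4 in the library labelled 5637 sh-NC, which were 0.00675, 0.0150, 0.0291 and 0.0297 FPKM. It had 1271 fragments in 5637 sh-LNMAT1#1 and 1938 in 5637 sh-LNMAT1#2, or 10.2 FPKM (95% counting interval 9.64 to 10.8) and 16.7 FPKM (15.9 to 17.4). The 4 low libraries had overlapping intervals and were not told apart. In bulk RNA, fewer cells that express a gene and less RNA per cell cannot be told apart.

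The gene length behind the FPKM altered which factor had the highest level per length. The fragments came out whole when every distinct exon of a gene was added up, also where exons of different transcripts overlap, a sum of 787 bases for CSF2, 7905 for CSF1 and 5997 for CSF3. With overlapping exons merged, the lengths were 787, 5418 and 2220 bases, so that the deposited FPKM of CSF1 was 1.46-fold and that of CSF3 2.70-fold lower than per merged base. Per deposited length, CSF2 was highest in 5637 sh-LNMAT1#2, at 23.3 FPKM against 16.7 FPKM for CSF3. Per merged length, CSF3 was 45.1 FPKM there and CSF2 23.3 FPKM, a ratio of CSF3 to CSF2 of 1.94 in place of 0.716. In 5637 sh-LNMAT1#1, CSF3 was highest with either length, at 10.2 or 27.5 FPKM. CSF1 there was 3.69 FPKM as deposited, 5.39 FPKM per merged length and 6.93 FPKM per length of its longest transcript, and the last value was above the 6.35 FPKM of CSF2. In the 3 UM-UC-3 libraries and the library labelled 5637 sh-NC the order was CSF1, CSF2, CSF3 with all 3 lengths. Differences of 1 gene between libraries keep their ratio under any length.

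**Figure D1:**
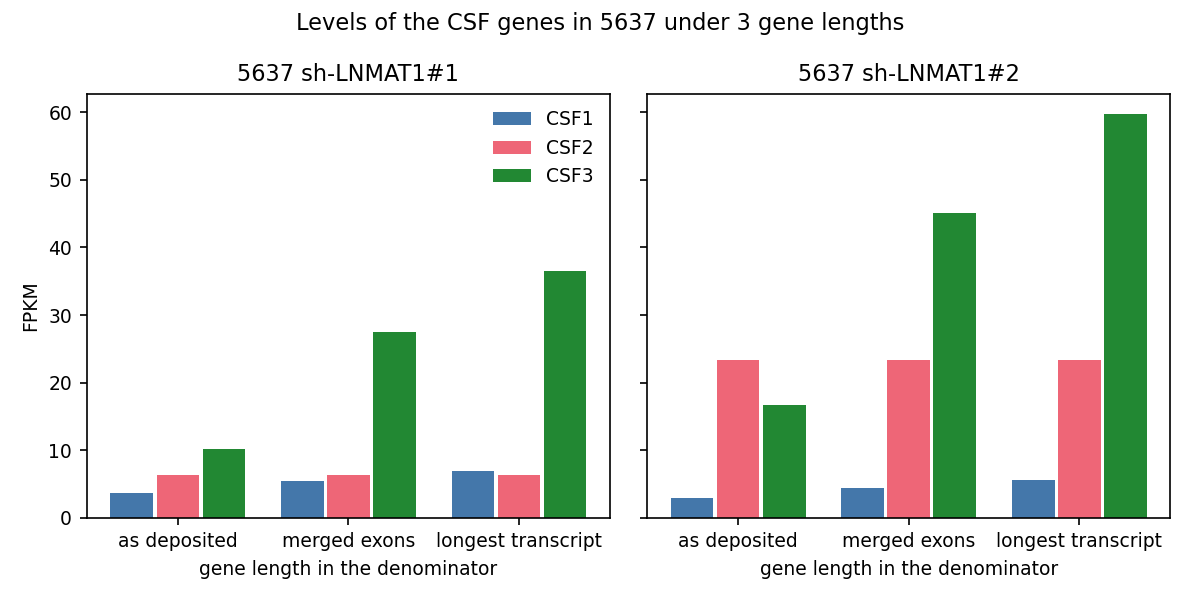
FPKM of the 3 genes in 5637 sh-LNMAT1#1 (left) and sh-LNMAT1#2 (right) with the deposited length, the length of merged exons and the length of the longest transcript; each bar is 1 library. In the right panel CSF2 stands above CSF3 as deposited, 23.3 against 16.7 FPKM, and below it per merged length, 23.3 against 45.1 FPKM.

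In UM-UC-3, CSF2 was lower under either hairpin and CSF1 slightly lower. CSF2 differed from sh-NC by -3.51 on the log2(FPKM + 0.5) scale with sh-LNMAT1#1 and by -1.32 with sh-LNMAT1#2. This scale understates the change of low genes, and the ratios of FPKM were 24.3-fold lower (95% counting interval 11.6 to 61.4) and 2.70-fold lower (2.03 to 3.64). CSF2 was 1 of 43 among 12024 genes, or 0.358%, that fell 2-fold or more with sh-LNMAT1#1 and also with sh-LNMAT1#2. A rise of 2-fold or more with the first hairpin and also with the second was seen in 130 genes, or 1.08%. CSF1 differed by -0.39 and -0.62, under the 2-fold limit. These differences rest on 1 sh-NC library. The library labelled 5637 sh-NC had the markers of UM-UC-3. Its CSF2 was 19.1-fold lower than that of UM-UC-3 sh-NC (9.84 to 42.4), beside 24.3-fold and 2.70-fold lower with the hairpins. Its CSF2 ratios to UM-UC-3 sh-LNMAT1#1 and sh-LNMAT1#2 were 1.28 (0.423 to 4.03) and 0.142 (0.0620 to 0.286). Its CSF1 ratio to UM-UC-3 sh-NC was 0.463, and those to sh-LNMAT1#1 and sh-LNMAT1#2 were 0.615 and 0.729. CSF3, at 1 to 4 fragments, was given no fold.

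Against the library labelled 5637 sh-NC, CSF2 and CSF3 were higher in both 5637 sh-LNMAT1 libraries, and CSF1 was lower. CSF2 differed by 2.76 with sh-LNMAT1#1 and by 4.56 with sh-LNMAT1#2, ratios of 12.5 (6.32 to 28.0) and 45.7 (23.8 to 101). CSF3 differed by 4.33 and 5.02, ratios of 343 (134 to 1260) and 561 (219 to 2061) against 4 fragments. Among 12790 genes, 18.5% were at least 2-fold higher with both hairpins and 12.3% at least 2-fold lower, so that a call in this comparison was common. The label of the sh-NC library goes against its markers, and the part of the cell line in these differences was not tested.

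CSF1 was lower than the labelled sh-NC in 4 of 4 comparisons, by -0.51 and -0.78 in 5637 beside the values above. This direction was shared by 11.0% of the 12716 genes. CSF1 was also lower with sh-LNMAT1#2 than with sh-LNMAT1#1 in both lines, by -0.23 in UM-UC-3 and -0.26 in 5637, ratios of 0.844 (0.784 to 0.908) and 0.810 (0.716 to 0.916). These intervals cover counting error only, and the share of all genes with this direction in both lines was not counted.

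The hairpins differed from each other in CSF2, in the same direction in both lines and without use of either sh-NC library. With sh-LNMAT1#2, CSF2 was 9.01-fold higher than with sh-LNMAT1#1 in UM-UC-3 (4.14 to 23.3) and 3.67-fold higher in 5637 (2.94 to 4.61), differences of 2.19 and 1.80 on the log2 scale. Of the 12716 genes, 17, or 0.134%, were at least 2-fold higher with sh-LNMAT1#2 in both lines. With 1 library per hairpin and line, a difference between hairpins and one between libraries cannot be told apart. CSF3 was 1.64-fold higher with sh-LNMAT1#2 in 5637 (1.52 to 1.76), and had too few fragments in UM-UC-3.

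Pooled over both lines, knockdown gave no call for the factors. In limma over all 6 libraries with the labelled line as a covariate, CSF1 differed by -0.57 (SE 0.22, adjusted p = 0.569), CSF2 by 0.62 (SE 1.45, adjusted p = 0.868) and CSF3 by 2.36 (SE 1.02, adjusted p = 0.569). Of 12716 genes 0, or 0%, passed an adjusted p of 0.05, and 811 had an unadjusted limma p under 0.05. CSF2 took the opposite sign, -2.41, when the library labelled 5637 sh-NC was left out, and -0.19 when 5637 sh-LNMAT1#2 was. For CSF3 the value was 0.04 when the library labelled 5637 sh-NC was left out and 4.68 when UM-UC-3 sh-NC was. CSF3 passed the filter only through the 5637 sh-LNMAT1 libraries. With no filter its limma adjusted p over all 6 libraries was 0.680.

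Between the lines, with only the sh-LNMAT1 libraries, CSF1 was lower in 5637, and CSF3, near absent from UM-UC-3, was high in 5637. In limma with 2 libraries per line, CSF1 differed by -1.18 (SE 0.22, adjusted p = 0.0113) and CSF3 by 4.70 (SE 0.29, adjusted p = 0.000319). CSF3 passed the filter on low values only through 5637, where it was high, so that this p was not independent of the filter. With no filter its limma adjusted p was 0.0110. CSF2 differed by 2.73 (SE 0.88, adjusted p = 0.0599) and was not called. With the hairpin as replicate block, the paired fit gave CSF2 the same difference with an SE of 0.26 and an adjusted p of 0.000158. Of 12843 genes, 20.2% were called higher and 18.4% lower in 5637. The spread in the fit without the hairpin block is that between the hairpins. The paired fit removes that spread and has 1 residual degree of freedom. An exact permutation of 2 against 2 libraries cannot go under p = 0.333. By hairpin, CSF2 was 15.9-fold higher in 5637 with sh-LNMAT1#1 (95% counting interval 7.45 to 40.6) and 6.47-fold higher with sh-LNMAT1#2 (4.95 to 8.56). CSF1 lost its call without either 5637 library, at -1.31 (adjusted p = 0.124) and -1.05 (adjusted p = 0.157), and CSF2 was called without UM-UC-3 sh-LNMAT1#2, at 3.83 (adjusted p = 0.0370). Epithelial markers moved with this comparison, with a summed level of 21.9 to 31.2 FPKM in UM-UC-3 and the labelled 5637 sh-NC and 707 to 950 FPKM in the 5637 sh-LNMAT1 libraries, and their part in the CSF differences was not tested.

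Ratios of summed fragments between the lines carry counting error only. CSF3 had 3209 fragments in the 2 5637 sh-LNMAT1 libraries and 6 in those of UM-UC-3, a depth-corrected ratio of 602 (276 to 1642). CSF2 had 459 and 72 fragments, a ratio of 7.18 (5.59 to 9.33), and CSF1 1065 and 2931, a ratio of 0.409 (0.381 to 0.439).

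**Figure D2:**
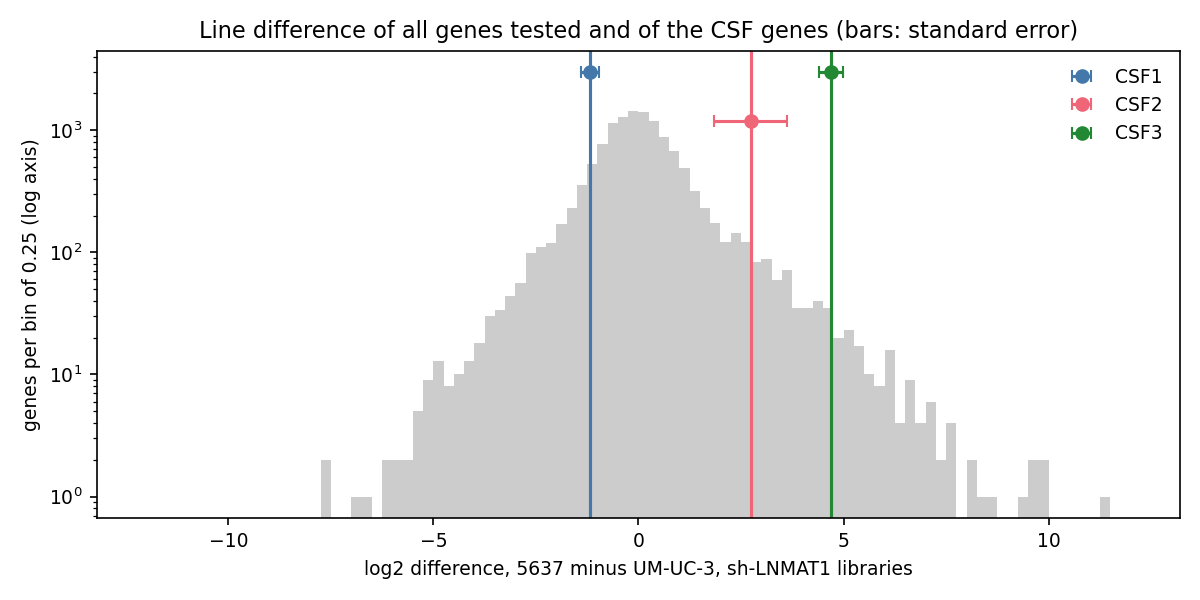
Histogram of the limma log2 difference between 5637 and UM-UC-3 sh-LNMAT1 libraries for all 12843 genes tested, on a log axis, with lines at CSF1 (-1.18), CSF2 (2.73) and CSF3 (4.70) and horizontal bars for their standard errors. The bar of CSF2, 0.88 to each side, is the widest of the 3.

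The knockdown change differed between the labelled lines for CSF2 and CSF3 in the interaction term. It was 6.07 for CSF2 (SE 1.53, adjusted p = 0.0495), 4.63 for CSF3 (SE 0.49, adjusted p = 0.00483) and -0.14 for CSF1 (SE 0.38, adjusted p = 0.816) in limma with 2 residual degrees of freedom. CSF3 passed the filter only through the 5637 sh-LNMAT1 libraries, and with no filter its limma adjusted p was 0.0463. Of 12716 genes 10.0% were called with a more positive and 8.79% with a less positive change in 5637. This term takes the library labelled 5637 sh-NC as the 5637 control, and it could not be fitted without either sh-NC library. Over its alternatives the limma adjusted p of CSF2 ran from 0.0424 to 0.210.

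Among the other ligands of the same receptor families, 3 of 5 were under 1 FPKM in every library. These were IL34, the second ligand of CSF1R, and IL3 and IL5, which share the CSF2RB chain, and the highest of their values was 0.106 FPKM. KITLG, the stem cell factor, was 8.03, 8.26, 7.93 and 8.78 FPKM in the UM-UC-3 libraries and the library labelled 5637 sh-NC, and 2.52 and 2.53 FPKM in the 5637 sh-LNMAT1 libraries. It was lower in 5637 by -1.51 (SE 0.19, limma adjusted p = 0.00335). FLT3LG, the FLT3 ligand, was at most 0.560 FPKM in the first 4 libraries and 2.45 and 1.97 FPKM in the other two, a difference of 1.46. It passed the filter only through 5637, and with no filter its limma adjusted p was 0.0325.

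The receptors for these ligands were close to undetected. All 8 receptor genes, CSF1R, CSF2RA, CSF2RB, CSF3R, IL3RA, IL5RA, KIT and FLT3, were under 1 FPKM in all 6 libraries, and CSF3R and IL5RA were listed at 0 throughout. The highest value was 0.260 FPKM for CSF1R in 5637 sh-LNMAT1#1, and CSF2RA, the specific GM-CSF receptor chain, reached at most 0.0223 FPKM. None of the 8 entered a test.

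Genes that signal below these receptors differed between the lines in both directions. Of 17 genes 14 were tested in the sh-LNMAT1 libraries, with 6 called higher in 5637, 3 lower and 5 not called, and a median of 0.35 beside -0.02 over all genes tested, of which 20.2% were called higher and 18.4% lower. LYN, PTPN6 and STAT5A passed the filter only through 5637, where they were high, so that these counts and this median were not independent of it. LYN, a Src-family kinase, was at most 0.561 FPKM in UM-UC-3 and the library labelled 5637 sh-NC and 8.92 and 6.93 FPKM in the 5637 sh-LNMAT1 libraries, a difference of 3.38 (limma adjusted p with no filter 0.0224). The phosphatase PTPN6 was at most 0.0209 FPKM in the first 4 and 2.52 and 2.19 FPKM in the other two. STAT5A, a transcription factor activated by GM-CSF, was higher in 5637 by 1.98 (limma adjusted p with no filter 0.0216). SOCS1, TYK2 and STAT5B, the others called higher, differed by 1.24, 1.21 and 0.73, and they passed the filter in both lines. JAK2, the kinase bound to CSF2RB, was lower in 5637 by -1.35 (limma adjusted p = 0.00549), and the other two genes called lower were CBL and PTPN11. JAK1, STAT3, SOCS3, GRB2 and SHC1 were not called, and CISH, SOCS2 and INPP5D were under the filter.

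Of 16 transcription factors known to act on CSF promoters, 14 were tested, with 0 higher in 5637, 6 lower and 8 not called, and a median of -0.28, beside 20.2% higher and 18.4% lower over all genes. REL passed the filter only through 5637. JUN, a subunit of AP-1, was 239 to 592 FPKM in UM-UC-3 and the library labelled 5637 sh-NC and 50.5 and 43.0 FPKM in the 5637 sh-LNMAT1 libraries, a difference of -2.98 (limma adjusted p = 0.00126). ETS1, which binds CSF2 regulatory regions in T cells, differed by -2.85 (limma adjusted p = 0.00231), FOSL1, another AP-1 subunit, by -1.76, and RELB, an NF-kB subunit, by -1.54. The factors not called were NFKB1, REL, RELA, JUNB, ETS2, NFATC1, RUNX1 and SP1, and NFATC2 and FOS were under the filter.

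All 12 genes of AU-rich element binding and cytokine messenger decay were tested, with 3 higher in 5637, 1 lower and 8 not called, and a median of 0.19. Over all genes 20.2% were called higher and 18.4% lower, and 3 of 12 is near the first share. ZC3H12A, which encodes the endoribonuclease regnase-1, was 2.14 to 3.81 FPKM in UM-UC-3 and the library labelled 5637 sh-NC and 55.1 and 77.7 FPKM in the 5637 sh-LNMAT1 libraries, a difference of 4.28 (limma adjusted p = 0.000535). ZFP36, which encodes the decay factor tristetraprolin, was 3.05, 8.86 and 5.04 FPKM in UM-UC-3. Its level was 8.22 FPKM under the label 5637 sh-NC and 2.74 and 3.15 FPKM in the 5637 sh-LNMAT1 libraries. It was called lower in 5637 by -1.07 (limma adjusted p = 0.0425). HNRNPD, or AUF1, and AUH, both RNA-binding proteins, were higher by 0.75 and 0.74. ELAVL1, the stabilising factor HuR, gave 0.48 (limma adjusted p = 0.0983).

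CSF1 is also made as a membrane-bound form that ADAM17 can release. Of 5 genes of its shedding, 2 were called higher in 5637, 1 lower and 2 were not called, beside 20.2% higher and 18.4% lower over all genes. ADAM17 was 27.1 to 30.5 FPKM in UM-UC-3 and the library labelled 5637 sh-NC and 14.8 and 14.3 FPKM in the 5637 sh-LNMAT1 libraries, lower in 5637 with a limma adjusted p of 0.0110. RHBDF2, a cofactor that carries ADAM17 to the surface, was higher by 1.52, and TIMP3, an inhibitor of ADAM17, was at most 0.263 FPKM in the first 4 libraries and 69.1 and 142 FPKM in the other two, a difference of 7.21. It passed the filter only through 5637, and with no filter its limma adjusted p was 0.0102. ADAM10 and RHBDF1 were not called, and the median of the list was 0.67.

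CSF3 had 8 genes within 200 kb that had a symbol and a mean of at least 1 FPKM, and 6 of them were called higher in 5637 and 0 lower, beside 20.2% and 18.4% of all genes. RAPGEFL1, among these 6, passed the filter only through 5637, and with no filter its limma adjusted p was 0.0505. PSMD3, a proteasome subunit 17.4 kb away, was 16.3 to 23.8 FPKM in UM-UC-3 and the library labelled 5637 sh-NC and 48.8 and 49.0 FPKM in the 5637 sh-LNMAT1 libraries, a difference of 1.37 (SE 0.21, limma adjusted p = 0.00642). MED24, a Mediator subunit 1.28 kb on the other side, differed by 0.92 (SE 0.19, limma adjusted p = 0.0165). ORMDL3, THRA, RAPGEFL1 and MSL1 differed by 1.24, 1.30, 1.54 and 0.93. CASC3 and NR1D1 were not called, at 0.21 and -1.22. All were smaller than the 4.70 of CSF3, and the copy number of the region was not measured.

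Around CSF2, 2 neighbours were kept. PDLIM4 was at most 0.0387 FPKM in UM-UC-3 and the library labelled 5637 sh-NC and 7.58 and 13.2 FPKM in the 5637 sh-LNMAT1 libraries, a difference of 4.31. It passed the filter only through 5637, and with no filter its limma adjusted p was 0.0145. P4HA2 gave 0.49 (limma adjusted p = 0.0984). IL3, in the same cytokine cluster, was listed at 0 in 5 libraries and at 0.0830 FPKM in UM-UC-3 sh-LNMAT1#2. Around CSF1, GSTM3 was lower in 5637 by -1.63 (limma adjusted p = 0.00530), and AHCYL1 was not called.

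The genes most like each factor across the 6 libraries were ranked by Pearson's r of log2(FPKM + 0.5), a description over 6 points. These fall into groups, with the library labelled 5637 sh-NC beside those of UM-UC-3. CSF1 was closest to NAA15 (0.995), WBP1L (0.994), EIF2S1 (0.989), RAD1 (0.988) and LRRC37BP1 (0.986). CSF2 was closest to METTL13 (0.992), NCBP1 (0.984), NUP160, NCOA5 and SRSF3 (0.982 each). METTL13 was 8.23, 4.52 and 6.53 FPKM in UM-UC-3 and 4.77, 8.24 and 11.3 FPKM in the libraries labelled 5637, the order of CSF2 in each line over a smaller range. CSF3 was closest to NKX1-2, SCEL, OLR1, ALS2CL and GALNT5, all under 0.03 FPKM in the 4 libraries low in CSF3. Of 12716 genes, an r of at least 0.99 was reached by 510 other genes for CSF3, 2 for CSF1 and 1 for CSF2. Between the factors, r was -0.37 for CSF1 with CSF2, -0.88 for CSF1 with CSF3 and 0.67 for CSF2 with CSF3.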

How the data were processed

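RNA of 6 libraries, 1 per construct and line, was extracted with TRIzol and RNeasy and made into TruSeq stranded mRNA libraries per the labels. The submitters' processing notes name HISAT2 and hg38, and the counting program and annotation are not given in the sources used here. Values were deposited by the authors as FPKM, 1 column per library. Of 50869 lines 50867 were used, because the record of 1 gene was broken over 2 lines. GENCODE release 29 held 50110 of the identifiers, 47522 of them at the same coordinates. No label tells of replicate cultures, so p-values measure only the spread between these libraries.

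The depth of each library was fitted as the value that brought single-exon genes closest to whole fragments. FPKM times exon length times depth then gave whole fragments (within 0.05) for at least 99.95% of values of single-exon genes. That share follows from the fit and is no check of it. Genes with several exons were not used in the fit. Of their values, 95.95% to 96.32% came out whole with all distinct exons summed, against 44.56% to 45.18% with merged exons. For 43.8% of matched genes the first length exceeds the second, so their FPKM is understated. For the factors, all 18 values came out whole. FPKM are not counts, and no count model was run.

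Python 3.11.15, numpy 2.4.6, pandas 2.3.3, scipy 1.17.1 and matplotlib 3.10.9, as well as limma 3.58.1 in R 4.3.3, served for the computations. Differences were taken on log2(FPKM + 0.5), with genes of a mean of at least 1 FPKM over the libraries compared. Limma (lmFit, eBayes with a trend) was fitted over all such genes with Benjamini-Hochberg adjustment, called under 0.05. Ratio intervals were exact binomial at 95%. Simulated data had 200 genes changed 4-fold and a set log2 SD of 0.15 between libraries, not one taken from these data. In them limma found 100% of the changed genes in each of the 3 comparisons. It called 13 unchanged genes in the pooled (12716 genes), 8 in the line (12843) and 9 in the interaction fit (12716). This checked the code and does not give the power of the fits on these libraries.

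The genes and lists were chosen with earlier results of these data known. Named were the ligands and receptors, in the other lists the called genes with the largest line difference (at most 4) and those a small count refers to, the neighbours within 200 kb and the 5 genes most like each factor. ELAVL1, SOCS1, TYK2 and STAT5B were added after their values were seen. A further 2 genes were left out of the lists, neighbours and their counts and are not reported here. Alternatives were pseudocounts of 0.1 and 1, no filter, a filter of 5 FPKM, 75th-percentile scaling, 1.5-fold and 4-fold limits, limma without a trend, the line as no covariate, the hairpin as block, other sets of libraries and each library left out. Lengths of merged exons, the alternatives of the difference between hairpins, and the unfiltered p of listed genes that passed the filter through 1 line were added after seeing the data.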

Additional observations from a re-analysis of the deposited data

Results flagged for a closer look

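The knockdown change of CSF2 differed between the labelled lines by 6.07 on the log2 scale (limma interaction, adjusted p = 0.0495). Either hairpin went with less CSF2 in UM-UC-3 and with more in the libraries labelled 5637. The knockdown change of CSF3 differed by 4.63 (adjusted p = 0.00483), with 4 fragments or fewer in each UM-UC-3 library. CSF3 passed the filter on low values only through the 5637 sh-LNMAT1 libraries, and with no filter its adjusted p was 0.0463. Both values rest on the library labelled 5637 sh-NC, whose markers were those of UM-UC-3.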

How the results depend on the processing

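The 40 alternative values of the factors' knockdown changes kept their direction, and 6, all of CSF3, moved beyond the spread between the hairpins. In 5637 CSF3 changed by 6.31 and 7.02 with a pseudocount of 0.1, 3.44 and 4.10 with 1, and 5.59 and 6.29 with merged exons. UM-UC-3 genes past the limit with both hairpins numbered 203 higher with a pseudocount of 0.1, 28 lower and 80 higher with 1, 288 and 528 at 1.5-fold, and 4 and 8 at 4-fold, and in 5637 they were 2874 and 3578 at 1.5-fold and 487 and 989 at 4-fold. The 17 genes higher with sh-LNMAT1#2 in both lines became 8 with a pseudocount of 1, 82 at 1.5-fold and 1 at 4-fold.

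In the pooled fit, leaving out each library in turn gave CSF2 -2.41 to 3.66, with -0.19 without 5637 sh-LNMAT1#2, CSF3 0.043 to 4.68, and 0 to 2115 genes higher and 0 to 1914 lower; both maxima arose without UM-UC-3 sh-NC. In the line fit, where a line left with 1 library was assumed to vary like the other, it gave CSF1 -1.31 to -1.05, CSF2 1.64 to 3.83, and 754 to 3124 genes higher and 438 to 2450 lower. With the hairpin as replicate block, CSF2 was 2.73 and called (limma adjusted p = 0.000158), and CSF1 and CSF3 stayed called, the only paired fit made, since the hairpin is shared between lines and the replicate number is 1 throughout. With all 6 libraries by labelled line, CSF1 was -1.14 and CSF3 3.15, neither called, and 1 gene was called higher and 1 lower. A filter of 5 FPKM left 1126 genes called higher and 1202 lower in the line fit and 420 and 469 in the interaction, where fewer genes were tested, and removed CSF3 from the pooled and interaction fits.

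The interaction of CSF2 lost its call with pseudocounts of 0.1 (7.19) and 1 (5.23), and with no filter (6.07, adjusted p = 0.210), a filter of 5 FPKM (6.07) and 75th-percentile scaling (6.03). It kept it without a trend and with merged exons. Leaving out each hairpin library gave 4.98 to 7.17 for CSF2, which lost its call without 5637 sh-LNMAT1#1, 5637 sh-LNMAT1#2 or UM-UC-3 sh-LNMAT1#1 (limma adjusted p = 0.111, 0.171 and 0.0850), and 398 to 2174 genes more positive and 94 to 1930 less positive. The cause of these changes was not tested. Counting error limits CSF2 in 2 libraries and CSF3 in 4.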
